A study of Mus musculus with 12 samples.

Results

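The inhibitors of DNA binding Id1, Id2, Id3 and Id4 were followed in the atrioventricular canal (AVC) and the primary ventricle (LV) of mouse embryos. Members were the probes whose gene symbol in the platform's annotation table is one of these 4 names, and each gene was read on its probe with the highest mean over all arrays. This gave 4 genes on 7 probes, of 19057 genes and 45281 probes in the whole series: 1 probe each for Id1 and Id3, 3 for Id2 and 2 for Id4. The study set the canal, from which the valves arise, against the ventricle on embryonic day 9, labelled E9, and on embryonic day 10, labelled E10, with 3 arrays in each of the 4 groups AVC E9, AVC E10, LV E9 and LV E10 and 12 arrays in all. The labels name no treatment, and total RNA of the dissected heart tissue was hybridised to 1-colour Illumina Mouse WG-6 v2 BeadChips. The labels give no strain or genotype, and they do not say whether a replicate was 1 embryo, a pool or a repeat of 1 extract, so p-values measure the spread between arrays, which may be technical. Each piece of tissue holds myocardium, endocardium and blood, and the canal also holds cells of the forming cushions. In such bulk RNA, fewer cells of a type and less RNA per cell cannot be told apart.

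Id proteins have a helix-loop-helix domain for dimerisation but lack the basic region that contacts DNA. By pairing with the E proteins they keep these from forming DNA-binding dimers with tissue-specific basic helix-loop-helix (bHLH) factors, and so delay differentiation in many lineages. Transcription of Id1, Id2 and Id3 is a classical early response to bone morphogenetic protein (BMP) signalling through Smad proteins. In the heart, BMP2 from canal myocardium acts on the overlying endocardium during cushion formation, and Id2 is known to act with Tbx5 and Nkx2-5 in the ventricular conduction system.

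Averaged over both ages all 4 genes were higher in the AVC than in the LV, by 2.24-fold for Id1, 2.45-fold for Id2, 2.19-fold for Id3 and 6.09-fold for Id4. On the main probes, Id2 and Id4 also passed the test at each age alone, and Id1 and Id3 did not. As all 4 passed the test of the tissue difference over both ages, the sequence just before the start of their transcripts is shown for Id2, Id3 and Id4, the genes matched in the table of RefSeq promoters (build GRCm38.p6), 250 bases for each. Capitals mark GGCGCC (a GC-rich element of the kind bound by BMP Smads), CANNTG (the E-box bound by bHLH dimers) and CCAAT on either strand. Id2 lies on the minus strand at chr12:25096093-25096342, Id3 on the plus strand at chr4:136143572-136143821 and Id4 on the plus strand at chr13:48260866-48261115.
Id2: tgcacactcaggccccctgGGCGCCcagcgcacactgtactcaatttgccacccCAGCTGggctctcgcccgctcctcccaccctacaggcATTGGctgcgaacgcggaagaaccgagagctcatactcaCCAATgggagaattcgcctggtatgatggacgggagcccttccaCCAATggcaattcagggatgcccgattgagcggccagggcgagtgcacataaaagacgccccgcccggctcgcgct
Id3: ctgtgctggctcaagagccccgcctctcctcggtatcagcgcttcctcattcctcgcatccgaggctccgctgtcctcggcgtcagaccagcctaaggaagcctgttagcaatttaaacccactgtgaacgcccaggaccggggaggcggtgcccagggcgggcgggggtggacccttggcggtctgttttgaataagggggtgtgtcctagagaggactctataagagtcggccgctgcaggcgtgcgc
Id4: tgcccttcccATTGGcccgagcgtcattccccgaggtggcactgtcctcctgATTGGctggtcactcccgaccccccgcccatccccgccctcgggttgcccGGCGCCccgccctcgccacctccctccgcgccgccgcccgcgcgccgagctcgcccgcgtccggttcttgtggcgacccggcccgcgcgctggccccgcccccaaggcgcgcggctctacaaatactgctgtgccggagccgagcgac
The Id2 window held GGCGCC at -231, 1 E-box at -196 and 3 matches of CCAAT, counted from the transcript start. The Id4 window held GGCGCC at -148 and 2 matches of CCAAT, and the Id3 window held none of the 3 motifs. A further short motif, GTCT, the core of the Smad-binding element, is left in lower case: it had 2 matches for Id3, 1 for Id2 and 0 for Id4, and 82.9% of all windows hold it. Over all 32817 windows of this length, 9.59% held GGCGCC, 66.2% an E-box and 33.8% CCAAT, so over all windows an E-box is common and GGCGCC is not. The GC content was 62.8% for Id2, 62.8% for Id3 and 75.6% for Id4, against a median of 52.4% over all windows. GGCGCC is made of G and C alone, and its rate among windows of like GC content was not taken. Whether its matches are unusual for such windows thus cannot be read. The motifs were picked with the expression values known, and a match is a string of letters, not a measured site.

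Intensities were the authors' values after scaling, with the same mean of 386 on every array, and a value was called above background where it exceeded the size of the most negative value on its array, 22.4 to 29.6. The probes of Id1, Id2 and Id3 and the main Id4 probe were above background on all 12 arrays. Tissue differences were tested with limma on log2 intensities over all 4 groups, with Benjamini-Hochberg adjustment over the 19057 genes. An adjusted p under 0.05 was called. A few arrays stood apart over all genes. Replicate 2 of AVC E9 and replicate 1 of AVC E10 were closest to each other (r = 0.979), and replicate 1 of LV E10 was closest to an LV E9 array (r = 0.969, against a mean of 0.933 with its own group). On Upk3b, an epicardial marker called higher at E10 in the LV, each of these 3 arrays lay with its labelled age, at 212, 2429 and 1509, where all E9 arrays read 91.6 to 423 and all E10 arrays 1509 to 3976. That call used these same labels, so Upk3b is no independent check of them. Gja5 and Krt8, neither called between ages, placed arrays differently. Gja5 read 493 on replicate 1 of LV E10, against 2291 and 2332 on its group's others and 348 to 579 in LV E9. Krt8 read 1188 there, against 430 and 474, with 997 to 2264 in LV E9. On replicate 1 of AVC E10 Krt8 read 1706, against 438 and 535, with 1950 to 3484 in AVC E9. The labels were kept, and whether any were exchanged was not tested further. Values without these arrays are given beside the Id results they move, and beside several results for other genes.

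Id1, a general inhibitor of bHLH factors in endothelial and mesenchymal progenitors, gave intensities of 879, 1152 and 891 in AVC E9 and of 1193, 1239 and 1322 in AVC E10. In LV E9 its intensities were 410, 392 and 458, and in LV E10 they were 355, 688 and 778. Every AVC array lay above every LV array, and 1 of the LV E10 arrays, replicate 1, lay below all LV E9 arrays while the other two lay well above them. The group means fell in the order AVC E10 (1251 ± 65.3, SD, n = 3), AVC E9 (974 ± 154), LV E10 (607 ± 223) and LV E9 (420 ± 34.0), and the LV groups overlapped while the AVC groups did not. Averaged over both ages, Id1 was 2.24-fold higher in the AVC (log2 difference 1.16 ± 0.19, SE, limma adjusted p = 0.0109). Within single ages the log2 difference was 1.21 ± 0.26 at E9 (adjusted p = 0.0851) and 1.12 ± 0.26 at E10 (adjusted p = 0.0750), neither of which passed. Without replicate 1 of LV E10 both passed, at 1.21 for E9 (adjusted p = 0.00494) and 0.77 for E10 (adjusted p = 0.0232).

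Id2, the member tied to the conduction system, gave intensities of 2919, 3392 and 2847 in AVC E9 and of 3944, 3660 and 3847 in AVC E10. In LV E9 they were 1233, 1054 and 1214, and in LV E10 they were 1404, 1612 and 2032. The 4 groups did not overlap at all on this probe, with the order AVC E10 (3817 ± 145, SD, n = 3), AVC E9 (3053 ± 296), LV E10 (1683 ± 320) and LV E9 (1167 ± 97.9). Id2 was 2.45-fold higher in the AVC over both ages (log2 difference 1.29 ± 0.09, adjusted p = 4.17e-04). It passed within E9 (1.39 ± 0.13, adjusted p = 0.00486) and within E10 (1.20 ± 0.13, adjusted p = 0.00602). The second Id2 probe read 452 to 795 on AVC arrays and 223 to 340 on LV arrays, and the third 414 to 702 and 206 to 430, so that only the third overlapped, and only across ages. Over both ages these probes gave log2 differences of 1.23 ± 0.15 (adjusted p = 0.00359) and 1.08 ± 0.19 (adjusted p = 0.0155). Within single ages the second probe passed at E9 (1.20, adjusted p = 0.0387) and at E10 (1.27, adjusted p = 0.0239). The third passed at neither, with 1.07 at E9 (adjusted p = 0.126) and 1.09 at E10 (adjusted p = 0.0863).

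Id3, an early response gene whose product acts much like Id1, gave intensities of 340, 471 and 300 in AVC E9 and of 504, 460 and 449 in AVC E10. In LV E9 they were 136, 142 and 183, and in LV E10 they were 145, 273 and 324. Within each age the tissues did not overlap, but the highest LV E10 array lay above the lowest AVC E9 array. The means were 471 ± 29.1 (SD, n = 3) for AVC E10, 370 ± 89.2 for AVC E9, 247 ± 92.1 for LV E10 and 154 ± 25.6 for LV E9, with each pair of ages overlapping within its tissue. The difference over both ages was 2.19-fold (log2 1.13 ± 0.21, adjusted p = 0.0186). It was the closest of the 4 to the threshold: without replicate 2 of LV E9 it was 1.11 with an adjusted p of 0.0509. Within single ages it did not pass, with 1.25 ± 0.29 at E9 (adjusted p = 0.105) and 1.01 ± 0.29 at E10 (adjusted p = 0.143). Without replicate 1 of LV E10 the E9 difference passed (adjusted p = 0.0213) and the E10 difference, then 0.66, did not (adjusted p = 0.0982).

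Id4, the most divergent member of the family and best known from the nervous system, gave intensities of 384, 277 and 354 in AVC E9 and of 344, 261 and 403 in AVC E10. In LV E9 they were 54.3, 40.1 and 31.9, and in LV E10 they were 71.8, 69.7 and 76.9. The lowest AVC array was thus at 261 and the highest LV array at 76.9. Means were 338 ± 55.4 (SD, n = 3) for AVC E9, 336 ± 71.2 for AVC E10, 72.8 ± 3.68 for LV E10 and 42.1 ± 11.3 for LV E9. The AVC groups overlapped and the LV groups did not. Id4 had the largest tissue difference of the 4 genes, 6.09-fold over both ages (log2 2.61 ± 0.16, adjusted p = 2.20e-04). The 95% interval of 2.25 to 2.97 lay above those of Id1 (0.74 to 1.59), Id2 (1.08 to 1.51) and Id3 (0.66 to 1.61). No test was made between genes, and no probe's level is set against that of another. At E9 the difference was 3.03 ± 0.22 (adjusted p = 0.00152), and at E10 it was 2.19 ± 0.22 (adjusted p = 0.00459). Under other processing settings, the log2 difference of Id4 went down to 2.06 over both ages, 2.32 at E9 and 1.79 at E10. Its size thus depends on the processing. The second Id4 probe was dim. It read 25.4 to 82.8 on AVC arrays, all above background, and 6.22 to 14.0 on LV arrays, none of them above background. Against the lowest signal counted as above background on those LV arrays, the AVC excess was at least 1.94-fold at E9 and at least 2.18-fold at E10, with limma adjusted p of 0.0583 and 0.0576.

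**Figure D1:**
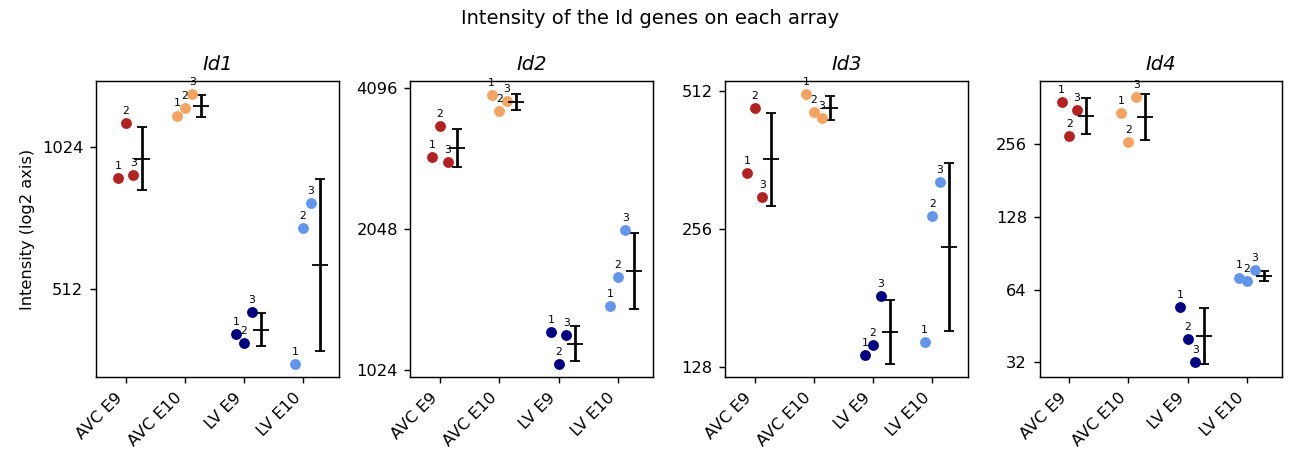
Intensity of Id1, Id2, Id3 and Id4 on each array, main probe, log2 vertical axis whose range differs between genes. Points are arrays with their replicate numbers, and bars give the mean and SD of log2 values (n = 3). Within each age every AVC array lies above every LV array. Replicate 1 of LV E10 is low for Id1 (355) and Id3 (145) and lies with its group for Id4 (71.8).

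The plot of intensities on each array shows the separation of the tissues and the single low array side by side. All 7 probes were higher on each AVC array than on each LV array of the same age, at E9 and at E10, where 11.8% of all genes at E9, 13.1% at E10 and 4.98% at both ages were placed in this way. By the test, 2 of the 4 genes, Id2 and Id4, were called at E9 against 1.02% of all genes, and the same 2 were called at E10 against 2.3%. Over both ages 4 of 4 were called higher, against 4.79% of all genes, and the median of the 4 log2 differences was 1.23 against 0.06 over all genes. Only 93 genes, 0.488% of those tested, were called higher in the AVC at each age separately. In size the Id differences were moderate: among the 912 genes called higher over both ages, Id4 ranked 97, Id2 264, Id1 310 and Id3 325.

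From E9 to E10 no Id gene passed the limma test in either tissue, with adjusted p of 0.352 to 1 in the AVC and of 0.0813 to 0.409 in the LV. In the AVC the log2 changes were 0.37 ± 0.26 for Id1, 0.33 ± 0.13 for Id2, 0.37 ± 0.29 for Id3 and -0.02 ± 0.22 for Id4, with unadjusted p under 0.05 for Id2 alone (0.0370). In the LV they were 0.46 ± 0.26 for Id1, 0.51 ± 0.13 for Id2, 0.62 ± 0.29 for Id3 and 0.82 ± 0.22 for Id4, with unadjusted p under 0.05 for Id2 (0.00408) and Id4 (0.00545). The ages did not overlap for Id1 and Id2 in the AVC, as for 10.2% of all genes that were higher at E10, nor for Id2 and Id4 in the LV, as for 8.05% of all genes. By the test, 0.551% of all genes were called between ages in the AVC and 2.37% in the LV. Without replicate 1 of LV E10 the rise in the LV passed for Id1 (0.80, adjusted p = 0.0105), Id2 (0.64, adjusted p = 0.0167) and Id3 (0.96, adjusted p = 0.0242). Epicardial markers moved with age too: in the LV 2 of 6 were called higher at E10, Tcf21 (3.38, adjusted p = 0.0320) and Upk3b (3.69, adjusted p = 0.0231), and in the AVC 1, Upk1b (2.50, adjusted p = 0.0457). The summed epicardial intensity was 318 to 921 on LV E9 and 2979 to 6684 on LV E10 arrays, and 602 to 859 on AVC E9 and 4908 to 5475 on AVC E10 arrays. Their part in the age differences of the Id genes was not tested. For Id4 leaving out replicate 1 of LV E10 changed little: without it the LV difference was 0.83 with an adjusted p of 0.0815.

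The tissue difference of Id4 was smaller at E10 than at E9 by 0.84 ± 0.31 on the log2 scale (95% interval of the change -1.56 to -0.12), with LV means of 42.1 and 72.8 and AVC means of 338 and 336. This interaction had an unadjusted p of 0.0266 and an adjusted p of 0.937 by limma, so it did not pass over all genes. Its LV intensities lay near the limit of detection, at 31.9 to 76.9 against 22.4 to 29.6. For Id1, Id2 and Id3 the interactions were -0.09, -0.19 and -0.25, with adjusted p of 1, 0.939 and 1. By this test 0.0315% of all genes were called.

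**Figure D2:**
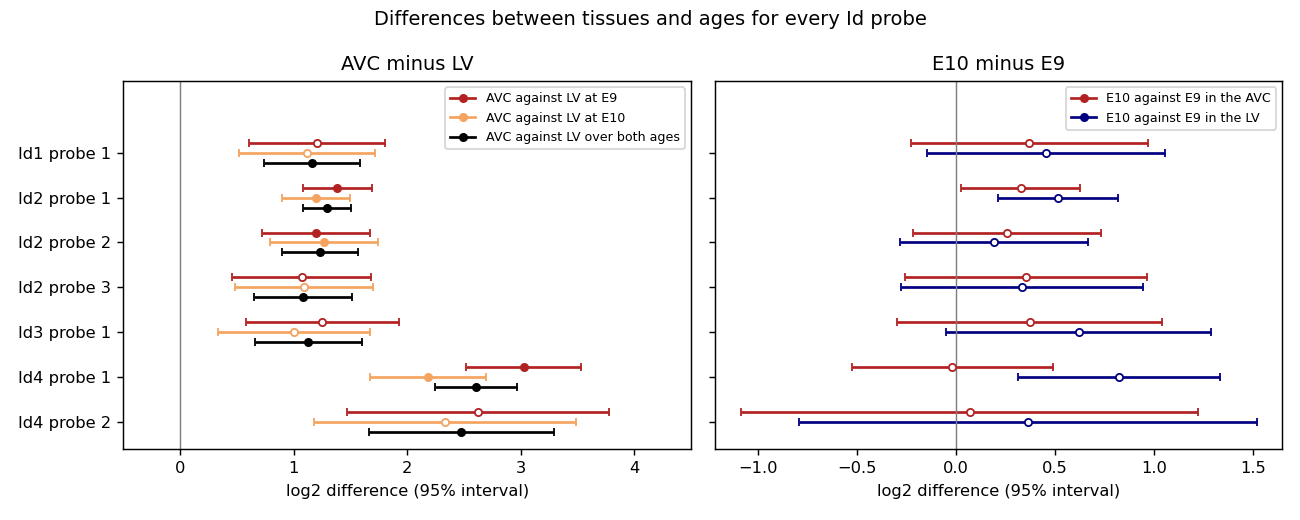
Log2 difference between tissues (left) and between ages (right) with 95% intervals from limma for the 7 Id probes, filled where the adjusted p was under 0.05. All tissue differences lie above 0, those of Id4 furthest, and no difference between ages is filled.

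In the plot of differences for every Id probe, the probes of one gene gave intervals that overlapped in each comparison. The probes of Id2 gave 1.08 to 1.29 over both ages. The second Id4 probe has no measured LV level, so its position rests on values below background and only its bounds above can be read.

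Within groups, Id1, Id2 and Id3 varied together over the 12 arrays, and Id4 varied apart from them. After subtraction of each group's mean log2 value, Id1 and Id3 correlated at r = 0.939 over 12 arrays, Id1 and Id2 at 0.823, and Id2 and Id3 at 0.830. Id4 gave r = -0.144 with Id1, 0.03 with Id2 and -0.326 with Id3. These are descriptions: all genes of an array share its RNA, its labelling and its tissue makeup. The widest spread came from LV E10, whose replicate 1 was low for Id1, Id2 and Id3. Without it and replicate 2 of AVC E9, Id1 and Id3 gave 0.596, Id1 and Id2 0.656 and Id2 and Id3 0.527, while Id2 and Id4 gave 0.315, so the contrast between Id2 and Id4 in this respect was weaker on the remaining 10 arrays. Replicate 1 of LV E10 also had the highest summed erythroid markers of its group (170574, against 109935 on the lowest array) and endoderm markers (4119 against 1005). On it Klf1, an erythroid factor, read 5663 against 1715 and 934 on the other LV E10 arrays, and Ttr, a visceral endoderm gene, 1826 against 314 and 79.6. The part of these cells in its low Id values was not tested. In replicate 2 of AVC E9, Id1, Id2 and Id3 were the highest of their group and Id4 the lowest. Its levels of Id1 (1152), Id2 (3392) and Id3 (471) were those nearest to AVC E10.

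**Figure D3:**
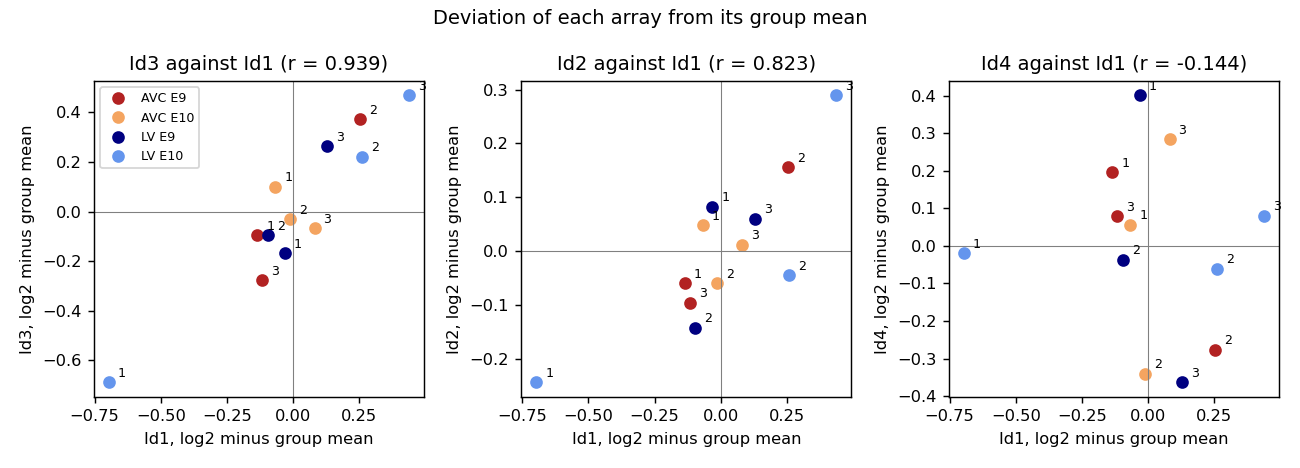
Deviation of each array from its group's mean log2 intensity for Id1 (horizontal) against Id3, Id2 and Id4 (vertical); colours are groups and numbers are replicates. Id3 and Id2 follow Id1 (r = 0.939 and 0.823) and Id4 does not (r = -0.144), with replicate 1 of LV E10 at the low end.

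Over all 12 arrays, tissue difference included, the genes most like each member were named by Pearson correlation of log2 intensity among the 8340 genes above background everywhere. For Id1 they were Mxra8 (0.989), Id3 (0.985), Znrf1 (0.972), Dhrs7 (0.969) and Plppr2 (0.968). For Id3 they were Id1, Mxra8 (0.981), Plppr2 (0.963), Dhrs7 (0.960) and Dync1i2 (0.960), so 4 of the 5 nearest genes of Id1 and Id3 were the pair itself or shared. Id2 was most like Cav1 (0.980), which encodes the caveolae coat protein caveolin, and Snai1 (0.976), a repressor that acts in epithelial to mesenchymal transition, followed by Znrf1, Itgb5 and Mxra8. Id4 shared none of these. Its nearest genes were Nudt10 (0.971), Kif3a (0.968), which encodes a kinesin motor, Lpar4 (0.963), a receptor for lysophosphatidic acid, Cdc16 (0.963) and Csnk2a1 (0.958). All of these genes were called higher in the AVC over both ages, with log2 differences from 0.26 for Cdc16 to 3.47 for Cav1, and the correlations contain that difference. Within groups the 5 genes gave r = 0.849 to 0.957 with Id1, 0.843 to 0.939 with Id3, 0.572 to 0.782 with Id2 and 0.130 (Lpar4) to 0.779 (Nudt10) with Id4.

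The partners of the Id proteins are the E proteins, and 1 of the 3 was called over both ages, against 5.47% of all genes. Tcf12 (HEB) was at 347 ± 29.2 (SD, n = 3) in AVC E9, 493 ± 42.9 in AVC E10, 238 ± 29.8 in LV E9 and 209 ± 43.6 in LV E10. Its log2 difference was 0.90 ± 0.11 over both ages (adjusted p = 0.00378), and it passed at E10 (1.26, adjusted p = 0.00987) but not at E9 (0.55, adjusted p = 0.180). Tcf3 (E2A) gave 0.49 ± 0.15 (adjusted p = 0.124) at low intensities of 36.7 to 53.9 in group means. Tcf4 (E2-2) gave 0.39 ± 0.21 (adjusted p = 0.401) at group means of 790 to 1147. Id2, Id4 and Tcf12 thus all passed at E10, and Tcf3 and Tcf4 passed at neither age nor over both. Without replicate 2 of AVC E9 and replicate 1 of LV E10, Tcf4 passed over both ages (0.64, adjusted p = 0.0439).

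Of 19 measured tissue-specific bHLH factors, the class 2 partners of E proteins, 1 was called over both ages and 7 were not above background on any array. That gene was Twist1, a driver of cushion mesenchyme, at group means of 623 and 1560 in AVC E9 and AVC E10 and of 195 and 199 in the LV (log2 2.30 ± 0.19, adjusted p = 8.74e-04). Without replicate 1 of LV E10, Twist2 (adjusted p = 0.00151) and Hand2 (adjusted p = 0.0131) passed as well, for 3 of 19. Among 12 Hes and Hey factors, bHLH repressors of the Notch pathway, Hey1 alone was called (1.57 ± 0.19, adjusted p = 0.00392), and 6 were not above background anywhere. Hey2 passed as lower in the AVC without replicate 1 of LV E10 (-0.98, adjusted p = 0.0312). Of 8 cell cycle inhibitors linked to Id function, 0 were called by limma and 2 had an unadjusted p under 0.05. By the methods' t-test after adjustment 0 were called within either age, but that test called few of all genes. Without replicate 1 of LV E10, Cdkn1a passed by limma (0.45, adjusted p = 0.0197). Without replicate 2 of AVC E9, 1 of the 8 was instead called lower in the AVC. Against these, the share of all genes called over both ages was 5.47%.

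Over both ages 5.47% of all genes were called and 4.79% were called higher, and the BMP counts here stand against these shares. Among 7 BMP ligands, Bmp2 was called (adjusted p = 0.00110). It was dim, at group means of 32.4 in AVC E9, where 2 of 3 arrays were above background, and of 42.1 in AVC E10, and no LV array was above background. At E10 this put the AVC at least 1.54-fold higher. Of 8 receptors, Acvr1, a BMP type I receptor, was higher in the AVC (0.48 ± 0.07, adjusted p = 0.00900) and Bmpr1b, another, was lower (-2.10 ± 0.41, adjusted p = 0.0235). Bmpr1b read 180 ± 27.9 in LV E9 and 31.5 ± 24.6 in AVC E9, where 2 of 3 arrays were above background. Smad1, which carries the BMP signal to the nucleus, was higher by 0.46 ± 0.09 (adjusted p = 0.0231) among 3 BMP Smads measured. Of 8 extracellular BMP regulators, Bmper was higher by 3.02 ± 0.19 (adjusted p = 2.20e-04) and Gpc3 by 0.33 ± 0.08 (adjusted p = 0.0453). With 1 array left out in turn, Bmp2, Acvr1 and Bmper passed in 12 of 12 fits, Smad1 in 10 (not without replicate 3 of AVC E10 or replicate 2 of LV E10), Bmpr1b in 6 and Gpc3 in 1. Bmpr1b was lost without replicate 2 or 3 of AVC E10, any array of LV E9 or replicate 3 of LV E10. Gpc3 passed only without replicate 1 of LV E9. Without replicate 1 of LV E10, Fst passed (3.66, adjusted p = 0.0267), above background on no LV array then kept. Leaving out replicate 2 of AVC E9 as well, Fst (adjusted p = 0.0404), Bmp4 (1.40, adjusted p = 0.0470) and Acvr2b (0.49, adjusted p = 0.0434) passed. So did Smad5 (0.50, adjusted p = 0.0124) and Twsg1 (0.46, adjusted p = 0.0439). With replicate 2 of AVC E9 alone left out, 2 of the 7 BMP ligands and 2 of the 3 BMP Smads were called higher.

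The BMP response genes, a list made without the Id genes, had more called members than any other list of the pathway or of helix-loop-helix partners. Over both ages 6 of the 9 measured were higher and none was lower, against 4.79% of all genes called higher, with a list median of 1.24 against 0.06 over all genes. These were Tbx2 (3.94 ± 0.46, adjusted p = 0.00332), Msx1 (2.69 ± 0.17, adjusted p = 2.20e-04), Atoh8 (2.45 ± 0.45, adjusted p = 0.0188), Hey1, Tbx20 (1.24) and Smad6 (1.20). The other 3, Smad7, Bambi and Msx2, were not above background on any array. Tbx2 encodes a repressor of chamber genes in the canal, Msx1 a homeobox factor of cushion cells and Smad6 an inhibitor of BMP signalling. Tbx2 was above background on only 1 of 3 LV arrays at each age, so the size of its difference depends on values below background. At E9, 4 of 9 were called against 1.02% of all genes, and at E10 2 of 9 against 2.3%. Single arrays moved these counts: the E9 count was 0 by limma without replicate 1 of AVC E9 (5 at an unadjusted p under 0.05), 2 without any of 7 other arrays and 5 without replicate 1 of LV E10, and the E10 count ran from 1 to 3. By the methods' t-test after adjustment 0 of 9 were called at either age (5 unadjusted at each). The Atoh8 value rests on LV E9 arrays below background (0 of 3), and at E10 its difference was 0.85 (adjusted p = 0.634). Over both ages the count ran from 3 (without replicate 1 of AVC E9 or replicate 3 of AVC E10) to 6. Tbx2, Msx1 and Hey1 passed in 12 of 12 fits with 1 array left out, Atoh8 in 10, Smad6 in 4 and Tbx20 in 3. It was 6 without both arrays that stood apart most. The list was drawn up with earlier results of these data known and is no independent evidence of its direction. It also shares genes with other lists: Tbx2 and Msx2 stand among the markers of AVC myocardium below, and Hey1 among the Hes and Hey factors.

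**Figure D4:**
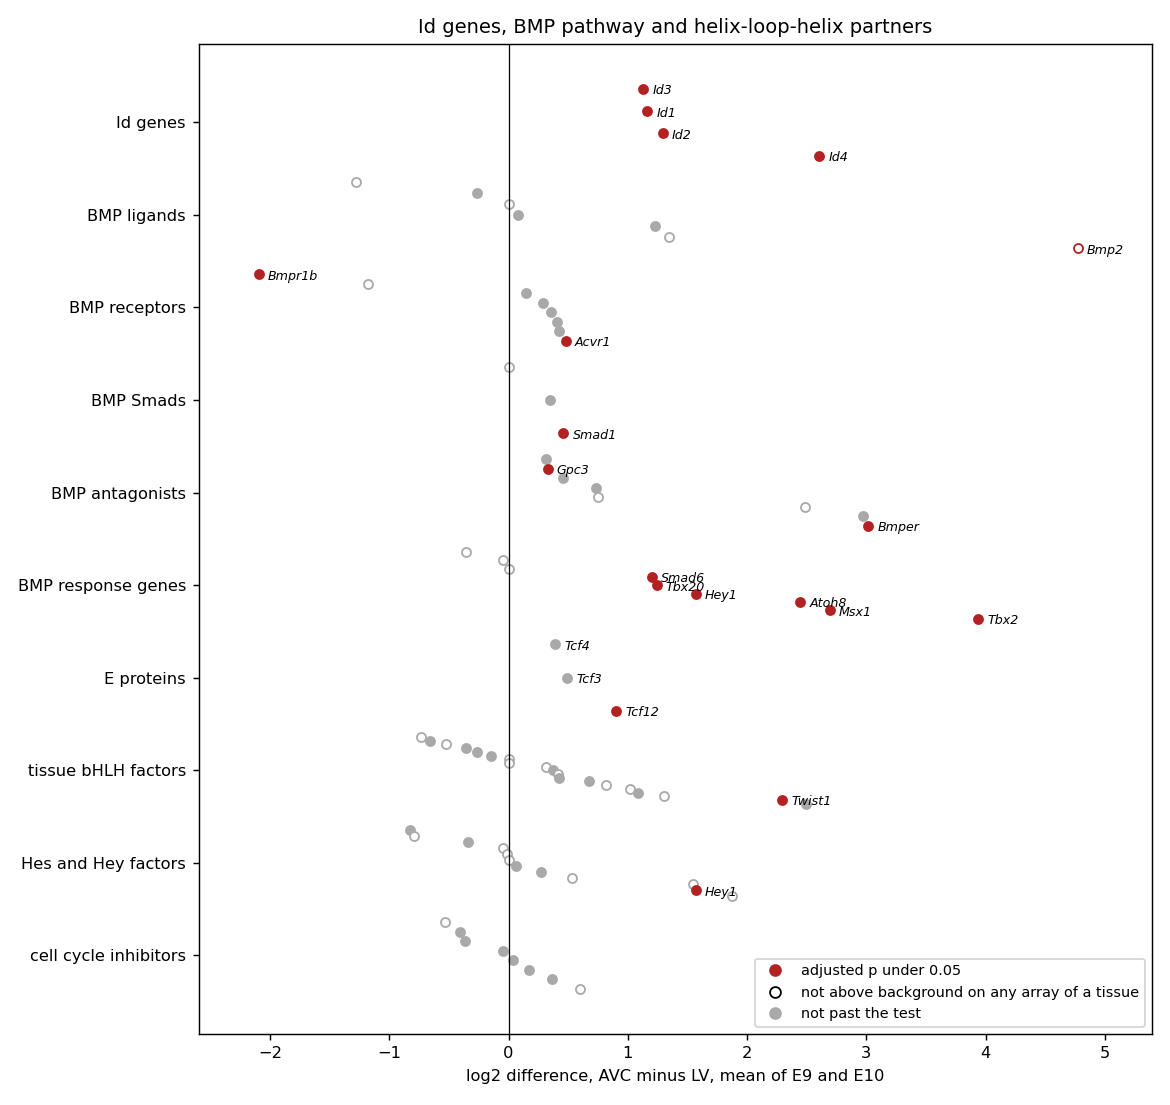
Log2 difference between AVC and LV over both ages for the Id genes and each list, 1 point per gene. Red points passed (adjusted p under 0.05), grey points did not, and open points were not above background on any array of a tissue, so that their position depends on the floor of 1. The 4 Id genes and 6 of 9 BMP response genes are red and to the right of 0, and each other list shown has at most 2 called genes.

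In the plot of pathway lists, most genes besides the Id and BMP response genes lie near 0 or are open. Of the Id2 partners in conduction, Tbx3, a repressor gene of conduction tissue added to that list, was higher (2.59 ± 0.40, adjusted p = 0.00977), while Tbx5 gave 1.20 (adjusted p = 0.176) and Nkx2-5 0.40 (adjusted p = 0.362).

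Those defining markers of the tissues that were called lay in the labelled direction. Of 6 markers of AVC myocardium 4 were higher in the AVC, Bmp2, Rspo3, Tbx2 and Tbx3, and not Cacna1g and Msx2. Of 8 of chamber myocardium 4 were lower, Irx2, Nppb, Nppa and Gja1. Irx4, Myl2, Hey2 and Gja5 (-0.35, adjusted p = 0.721) were not called. Without replicate 1 of LV E10, Hey2 and Gja5 (-0.72, adjusted p = 0.0440) passed as lower. Without it and replicate 2 of AVC E9, Cacna1g passed (2.92, adjusted p = 0.0171), above background on no LV array. With replicate 2 of AVC E9 alone left out, 5 of the 6 markers of AVC myocardium were already called higher. Makeup differed with tissue, and the counts here stand against 4.79% of all genes called higher and 5.47% called in either direction. Of 9 cushion mesenchyme markers 7 were higher in the AVC, with summed intensities of 4407 to 7936 on AVC arrays and 1097 to 2043 on LV arrays. With 1 array left out in turn this count ran from 6 to 7, and Snai2 passed in 3 of 12 fits. Of 11 endocardial and endothelial markers 2 were higher, Nfatc1 and Tek, and 1 lower, Emcn, which passed in 12, 6 and 2 of 12 fits with 1 array left out, with a median of 0.06 and sums of 3636 to 7461 in the AVC and 4394 to 7341 in the LV. The defining marker Kdr was not above background on any array. Of 7 erythroid markers 0 were called by limma (1 at an unadjusted p under 0.05), with sums of 106383 to 139361 in the AVC and 109935 to 170574 in the LV. Of 7 neural markers 0 were called (1 unadjusted) and 5, Sox2, Pax6, Pax3, Olig2 and Elavl3, were not above background anywhere. The 1 was Sox10 (2.74 ± 0.69, limma adjusted p = 0.0586). It read 20.2, 41.4 and 47.7 in AVC E10, with 2 arrays above background, and was above background on no LV array. Without replicate 2 of AVC E9 and replicate 1 of LV E10 it passed (2.98, adjusted p = 0.0383). With replicate 2 of AVC E9 alone left out, 1 of the 7 neural markers was called higher. Of 6 epicardial markers 0 were called (1 unadjusted), and of 8 of endoderm epithelium 0 were called (0 unadjusted), with Epcam, Foxa2 and Shh never above background. By the methods' t-test after adjustment none of these last 4 lists had a called gene within either age. That test called few of all genes at either age, so these empty counts cannot show a lack of difference. The part of cushion mesenchyme and of the other cell types in the Id differences was not tested.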

How the data were processed

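Series values were the authors' normalised bead intensities, deposited on a linear scale with negative values after background subtraction. Per the methods they were analysed in GeneSpring GX at thresholds of 4-fold and p of 0.01, with no test named for the arrays. The methods name Student's t-test for comparing data in general, and it is called the methods' t-test here. Adjustment of its p-values was added. The deposited table was used as given, no genome build being needed. Of 45281 probes, 34885 carried 1 gene symbol in the platform table, 18 several and 10378 none. The log2 of each value, with a floor of 1 (36.8% of values lay under it), was fitted in limma 3.58.1 (R 4.3.3) over all 12 arrays and probes as 4 groups. Each gene was read on its probe with the highest mean, and p-values were adjusted (Benjamini-Hochberg) over 19057 genes within each of 6 contrasts. The fit was tested on simulated data. The number of arrays, 3 a group, limits the precision.

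The members and lists were chosen with earlier results of these data known. Genes named were the 4 members, the 3 E proteins, up to 4 called genes a list by size of difference, and the 5 genes most correlated with each member; Tbx20 and Smad6, the remainder of the called BMP response genes, and the genes named as not passing, as below background, as gained with arrays left out or as high on 1 array (Klf1, Ttr) were named after their values were seen. Alternatives were other normalizations, floors, filters and probes, the replicate number as a block, and each array left out.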

Additional observations from a re-analysis of the deposited data

How the results depend on the processing

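Each array was left out in turn, and 12 other settings were tried. The tissue difference over both ages could be had in all but the methods' t-test and the fits of only the compared groups. There it kept its direction and passed for Id1, Id2 and Id4. For Id3 it fell short with quantile normalization (0.97, adjusted p = 0.0710), with arrays centred on detected genes (0.97, adjusted p = 0.0578) and without replicate 2 of LV E9. The cause was not tested.

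Leaving out single arrays, the log2 difference at E9 ranged from 1.08 to 1.27 for Id1, 1.31 to 1.43 for Id2, 1.07 to 1.39 for Id3 and 2.85 to 3.23 for Id4. At E10 the ranges were 0.77 to 1.34, 1.08 to 1.34, 0.66 to 1.24 and 2.04 to 2.36. Over both ages they were 0.99 to 1.27, 1.23 to 1.36, 0.96 to 1.25 and 2.52 to 2.71. Between ages they were 0.30 to 0.50, 0.28 to 0.40, 0.23 to 0.56 and -0.16 to 0.15 in the AVC, and 0.24 to 0.80, 0.37 to 0.64, 0.39 to 0.96 and 0.64 to 1.02 in the LV. For the interaction they were -0.43 to 0.13, -0.31 to -0.04, -0.59 to -0.01 and -1.04 to -0.66. The sign turned for Id4 between ages in the AVC without replicate 1 (0.08) or 3 (0.02) of AVC E9 or replicate 2 of AVC E10 (0.15). It turned for the interaction of Id1 without replicate 2 of AVC E9 (0.04), replicate 2 (0.04) or replicate 3 (0.13) of LV E10.

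With genes never above background removed, Id1 at E10 (1.12, adjusted p = 0.0435) and Id2 between ages in the LV (0.51, adjusted p = 0.0466) passed. The latter also passed with quantile normalization (0.58, adjusted p = 0.0412), as did Id4 between ages in the LV with centring (0.92, adjusted p = 0.0481). The second probe of Id4 did not pass at E9 (2.63) or E10 (2.33) and turned the sign between ages in the AVC (0.068), as that of Id2 did for the interaction (0.067). With only the compared groups, Id2 at E10 (1.20) did not pass (adjusted p = 0.0896). By the methods' t-test after adjustment, neither Id2 (1.39 at E9, 1.20 at E10) nor Id4 (3.03 and 2.19) passed, with adjusted p of 0.0636 and 0.161 for Id2 and 0.0861 and 0.0981 for Id4. At the methods' threshold of 4-fold, Id2 fell short at both ages (1.39 and 1.20) and Id4 passed on its main values. Under other settings Id4 went down to 1.79 at E10, which is less than 4-fold. Without both arrays that stood apart most, chosen after seeing the data, Id1 (1.08 at E9, 0.77 at E10) and Id3 (1.07 at E9, 0.66 at E10) passed, and so did Id1 between ages in the AVC (0.50) and Id1 (0.80), Id2 (0.64) and Id3 (0.96) between ages in the LV.

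The number of genes called moved more. Single arrays left out gave 59 to 422 genes at E9 (195 with all arrays), 97 to 730 at E10 (438), 567 to 1357 over both ages (1042), 25 to 465 between ages in the AVC (105), 54 to 2630 in the LV (452) and 10 to 43 for the interaction (6). Without both arrays they were 349, 1604, 2170, 1240, 3652 and 67. Quantile normalization gave 268 at E10 and 63 between ages in the AVC, and centring gave 218 at E10. In the AVC between ages a floor of 16 gave 182 and a pseudocount of 32 gave 235, with 3 for the interaction. With the background filter, counts were 303 at E9, 201 and 965 between ages in AVC and LV, and 0 for the interaction by limma, where 621 had an unadjusted p under 0.05. With only the compared groups, counts were 83, 72, 21 and 75 at E9, at E10, and between ages in AVC and LV. The methods' t-test gave 16, 10, 13 and 26 after adjustment, and at the methods' thresholds 168 at E10, 163 in the AVC and 192 in the LV.

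The groups share replicate numbers, and the labels do not say what these pair. Of 18 same-numbered pairs of arrays, 9 had deviations correlating over 0.1 (range -0.365 to 0.524). Among arrays of other groups, 8 of 12 arrays correlated best with one of their own number. The main fit takes no account of the numbers, and whether same-numbered arrays share a source was not tested. With the number as a replicate block, no Id call changed, and the counts were 66 between ages in the AVC, 794 in the LV and 3 for the interaction.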
